A study of Mus musculus with 12 samples.

Results

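The genes described here are 35 components and regulators of complement, taken by their symbols from the 30743 rows of the deposited table. All 35 have a row. The samples were whole livers of C57BL/6J male fetuses at 15 ± 0.5 dpc, 6 from dams on a high-fat diet (HFD, 60 kcal% fat) and 6 from dams on a control diet (13.5 kcal% fat), each diet fed for 12 to 14 weeks. RNA was selected by its polyA tail and sequenced. The labels name no transgene or deletion in either group. The diets came from different makers, and which fetuses shared a dam is not stated. The value used is 1 average log2 CPM (reads of a gene scaled to the size of the library) per gene over all 12 livers, which the authors computed. The columns that set HFD against control are the authors' own comparison and were not used, so the levels below describe both diets together, have no SD and carry no test of diet. Which genes in these livers held complement RNA, and at what level, is the question these values bear on.

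Complement is a cascade of plasma proteases and binding proteins that marks microbes and dying cells for removal. In the lectin route, collectins and ficolins bind sugars and activate MASP proteases. In the classical route, C1q binds antibody and activates the proteases C1r and C1s. Both routes cleave C4 and C2 and lead to C3, the central component, while factors B and D with properdin form the alternative route on C3 itself. C5 (the mouse gene is Hc) and C6 to C9 then build the pore of the membrane attack complex, and soluble and membrane-bound regulators hold the cascade in check. Hepatocytes make most of the plasma components. C1q comes mainly from macrophages, and ficolin B and properdin come mainly from myeloid cells.

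The windows at the transcription start of 5 members are shown because each belongs to the gene with the highest level per exon length, among genes with a window, in the lectin, classical, alternative and central, terminal or regulator set. They come from RefSeq on GRCm38.p6, run from 250 bases before the start to 50 bases after it, and are written 5′ to 3′ on the minus strand, on which all 5 genes lie. Capitals mark matches, on either strand, to motifs given below. The windows are chr2:28084829-28085128 for Fcnb (lectin), chr4:136886151-136886450 for C1qb (classical), chr17:57228087-57228386 for C3 (central), chr2:35061363-35061662 for Hc (terminal) and chr1:130462695-130462994 for Cd55 (regulator).
Fcnb: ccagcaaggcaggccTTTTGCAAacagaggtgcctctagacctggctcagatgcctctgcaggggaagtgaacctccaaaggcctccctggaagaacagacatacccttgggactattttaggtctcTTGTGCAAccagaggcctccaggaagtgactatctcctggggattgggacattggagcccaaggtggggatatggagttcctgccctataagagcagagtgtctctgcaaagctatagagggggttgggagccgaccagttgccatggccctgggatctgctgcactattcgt
C1qb: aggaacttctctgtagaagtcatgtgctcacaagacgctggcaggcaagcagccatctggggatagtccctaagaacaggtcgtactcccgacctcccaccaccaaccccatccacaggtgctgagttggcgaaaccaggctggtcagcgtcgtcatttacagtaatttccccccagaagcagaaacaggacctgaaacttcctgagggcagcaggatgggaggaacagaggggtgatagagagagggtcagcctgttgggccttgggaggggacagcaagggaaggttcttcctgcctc
C3: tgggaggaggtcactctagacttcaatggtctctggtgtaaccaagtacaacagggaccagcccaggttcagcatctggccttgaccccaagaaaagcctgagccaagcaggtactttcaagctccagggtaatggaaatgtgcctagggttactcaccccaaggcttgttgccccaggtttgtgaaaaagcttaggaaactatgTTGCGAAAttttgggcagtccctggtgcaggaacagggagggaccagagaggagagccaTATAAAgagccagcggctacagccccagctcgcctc
Hc: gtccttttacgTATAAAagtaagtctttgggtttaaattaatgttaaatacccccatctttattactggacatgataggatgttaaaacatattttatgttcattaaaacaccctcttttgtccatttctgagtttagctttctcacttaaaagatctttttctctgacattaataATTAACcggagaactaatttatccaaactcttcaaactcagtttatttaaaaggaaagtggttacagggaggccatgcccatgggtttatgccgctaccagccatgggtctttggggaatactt
Cd55: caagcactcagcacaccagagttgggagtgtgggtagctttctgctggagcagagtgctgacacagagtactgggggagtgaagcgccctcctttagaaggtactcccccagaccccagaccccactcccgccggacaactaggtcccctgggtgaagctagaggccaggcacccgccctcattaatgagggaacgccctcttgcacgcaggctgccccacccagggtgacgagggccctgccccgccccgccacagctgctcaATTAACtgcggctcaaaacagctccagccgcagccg
The Fcnb window holds C/EBP matches beginning 235 and 123 bases before the start, and the C3 window holds one beginning 45 bases before it. The GTTAAT match of Hc begins 74 bases before the start, and that of Cd55 14 bases after it. TATAAA begins 14 bases after the start of C3 and 239 bases before that of Hc. C1qb has no match to any of the 7 motifs searched.

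Levels are given as CPM above the value of genes without reads, which is 0.152 CPM (-2.71 on the deposited log2 scale). Over the table they sum to 1000487 CPM. If the prior count was 2, the usual setting and an assumption here, 1 read over all 12 livers was worth 0.00635 CPM. The 95% exact Poisson intervals below rest on reads recovered in this way and cover counting error only. To compare genes, CPM was divided by the length of the union of a gene's exons in GENCODE M21 and is then written as CPM per kb. Of the 35 members, 27 (77.1%) lay above 1 CPM, against 43.9% of 19880 protein-coding genes. The median member had 14.6 CPM and 6.60 CPM per kb, and the median protein-coding gene 0.493 CPM and 0.117 CPM per kb. By CPM per kb, 11 members (31.4%) were in the top 10% of genes with reads, where 8.36% of protein-coding genes lay. The members together took 0.761% of the total, and C3 alone 0.436%.

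A low level in this table cannot be read as little RNA. Actb, Eef1a1 and Eef2 had 2581, 5951 and 3805 CPM, but Gapdh had 5.05 CPM, Ldha 0.634 CPM and Ppia 0.0128 CPM, although most cells use these genes heavily. The level also moved with how many mRNAs RefSeq lists for a gene. Among protein-coding genes with 0 or 1 listed mRNA, 10.5% of 12258 genes exceeded 100 CPM, and among those with 2 or more it was 3.73% of 7622. Genes listed at 0 ran the other way, 24.2% of those with 0 or 1 listed mRNA and 18.4% of those with 2 or more. Of the members with 1 listed mRNA, 17 of 21 lay above 1 CPM with a median of 48.2 CPM, and of those with 2 or more, 10 of 14 did with a median of 4.18 CPM. The part of annotation and read counting in the low values was not tested. A member listed at 0 is therefore reported only as listed at 0.

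**Figure D1:**
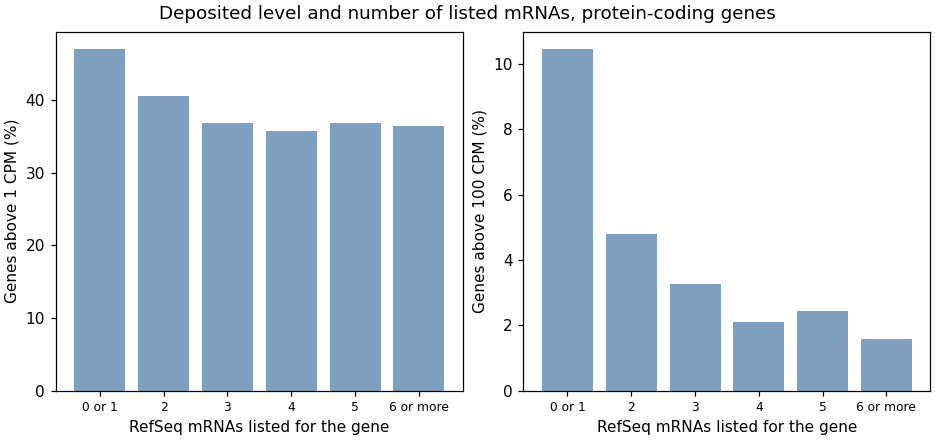
Share of protein-coding genes above 1 CPM (left) and above 100 CPM (right), in percent, by the number of RefSeq mRNAs listed for the gene; bars are shares of all genes in the class. The share above 100 CPM is 10.5% with 0 or 1 listed mRNA, 4.80% with 2 and 1.59% with 6 or more.

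C3, whose cleavage all routes share, had the highest level of the 35 genes by either measure. The gene spans chr17:57203970-57228136 of GRCm38 (mm10). It had 4362 CPM (95% interval 4351 to 4372), which ranked 17 among the 19652 genes with reads, and 848 CPM per kb. That is 8.46 times the level per kb of Hc and 2.53 times that of Cfi. Without C3, the other 34 genes summed to 3250 CPM, so C3 gave 57.3% of the members' total.

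The other members of the alternative route were uneven. Cfp encodes properdin, which stabilises the alternative convertase, and had 81.9 CPM and 47.2 CPM per kb. Cfb, for factor B, and Cfd, for the protease factor D that cleaves it, were both listed at 0. A total of 3 reads over all livers would have given 0.0190 CPM. Cfb lies at chr17:34856374-34862518 next to C2, and 79.5% of its exon bases are also exons of Gm20547, a gene whose exons overlap both Cfb and C2 in GENCODE M21. Of C2's exon bases, 46.9% are under Gm20547 or Zbtb12, and C2 had 119 CPM. The part of this overlap in either value was not tested. Cfd, at chr10:79890853-79892655, shares no exon base with another gene, and RefSeq lists 3 mRNAs for it. Adipocytes, which secrete factor D in adult mice, had their markers Adipoq, Plin1 and Cidec at 0.0191, 0 and 0 CPM. RefSeq lists 1, 2 and 3 mRNAs for these markers, and their low values cannot be read as a lack of adipocytes. Their relation to the Cfd value was not tested.

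**Figure D2:**
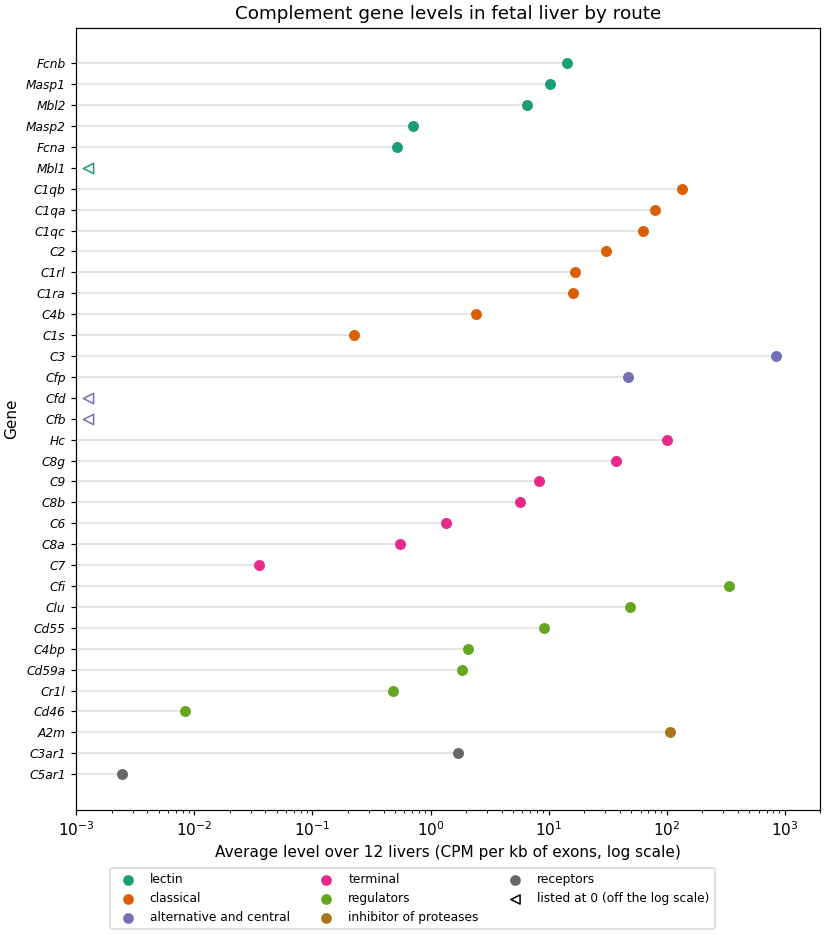
Average level of each of the 35 genes over the 12 livers, in CPM per kb of exons on a log axis, ordered within routes and coloured by route; filled points are levels and open triangles mark genes listed at 0. C3 lies at 848 and Cfi at 335 CPM per kb, while Mbl1, Cfb and Cfd are listed at 0.

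In the lectin route, 4 of 6 genes lay above 1 CPM and none was in the top 10% per kb. Fcnb, for ficolin B, was highest per kb of the union of exons, with 14.3 CPM per kb (19.1 CPM, interval 18.5 to 19.8). Fcna, for the related ficolin A, had 0.712 CPM, and the ratio of Fcnb to Fcna per kb was 27.6. Masp1, which encodes the protease MASP-1 and its splice forms, had the most CPM of the route, 101 CPM, spread over 9833 exon bases, or 10.3 CPM per kb. With the longest transcript the order turned, with 18.9 CPM per kb for Masp1 and 16.4 for Fcnb. Masp2, for the MASP-2 protease that cleaves C4 and C2, had 2.37 CPM. Of Masp2's exon bases, 54.9% are also exons of Tardbp, and the library kit does not mark strand. Mbl2, for mannose-binding lectin C, had 7.18 CPM (6.77 to 7.62) and 6.60 CPM per kb. Mbl1, for mannose-binding lectin A, was listed at 0. Mbl1 lies at chr14:41151458-41159601, has 1 listed mRNA and shares no exon base with another gene.

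In the classical route, 7 of 8 genes lay above 1 CPM and 4 were in the top 10% per kb. The 3 chains of C1q, which assemble into 1 molecule, lie side by side on chromosome 4 between 136880129 and 136898803. C1qb had 134 CPM per kb, C1qa 79.3 and C1qc 62.8. The spread among them depended on the length used. C1qb stood 2.13 times above C1qc by the union of exons and 1.33 times by the longest transcript, and C1qa moved from 1.26 times C1qc to 0.786 times. C1qb was the highest of the 3 with both lengths.

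The proteases of the C1 complex differed more. C1ra had 48.2 CPM and 16.2 CPM per kb, and its neighbour C1rl, a C1r-like gene, had 50.7 CPM and 16.9 CPM per kb. C1s, now named C1s1, had 0.704 CPM (0.580 to 0.848), so that C1ra exceeded it 71.9 times per kb. RefSeq lists 2 mRNAs for C1s1 and 1 for C1ra. Of C1s1's exon bases, 18.4% are also exons of Gm16567, while C1ra shares no exon base with another gene. The part of these differences in the ratio was not tested. In plasma C1r and C1s act as partners in 1 complex. Of all 50-base words in C1ra transcripts, 50.8% also occur in transcripts of other genes, of which C1rb and Gm18840 share the most. For C1s1, 21.9% occur in C1s2. Reads shared within these pairs make the split between copies uncertain. C1rb and C1s2 themselves had 1.27 and 1.26 CPM.

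C2, the protease component of the C3 convertase, had 119 CPM, and C4b, whose protein forms the convertase with C2, had 13.9 CPM. C2 stood 12.6 times above C4b per kb of the union of exons, 17.45 times with the longest transcript and 8.57 times by CPM. C4b shares 34.6% of its 50-base words with C4a, which had 0.0954 CPM. C2 shares 38.7% with Gm20547.

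In the terminal route, 6 of 7 genes lay above 1 CPM, and 1 gene gave 86.5% of the summed CPM. That gene was Hc, for C5, at chr2:34983331-35061438, with 628 CPM (624 to 632) and 100.2 CPM per kb. The genes of the pore proteins were lower. C9, the component that polymerises into the pore, had 21.2 CPM and 8.30 CPM per kb. C6 had 4.85 CPM and 1.36 CPM per kb, 73.5 times below Hc per kb. C7 had 0.0947 CPM (0.0533 to 0.157), about 15 reads over all 12 livers. RefSeq lists 1 mRNA for C7, and its exons overlap no other gene.

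The 3 subunits of C8 form 1 protein in plasma. C8g had 37.1 CPM per kb, C8b 5.72 and C8a 0.551. The order was the same with the longest transcript, where C8g stood 7.40 times above C8b and C8b 11.7 times above C8a. C8a and C8b are neighbours on chromosome 4, and C8g lies apart on chromosome 2. RefSeq lists 3 mRNAs for C8a and 2 each for C8b and C8g.

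Among the regulators, 6 of 7 genes lay above 1 CPM. Cfi, for the plasma protease factor I that cleaves C3b and C4b, was highest, with 744 CPM (740 to 748) and 335 CPM per kb, at chr3:129835884-129875332. Clu, for clusterin, which binds the forming pore, had 168 CPM and 49.0 CPM per kb. C4bp, for the C4b-binding protein that serves as a cofactor of factor I, had 13.8 CPM and 2.06 CPM per kb. Of the regulators on cell membranes, Cd55, which speeds decay of convertases, was highest with 44.7 CPM and 9.22 CPM per kb. Cd59a, which blocks the pore, had 3.36 CPM. Cr1l encodes Crry, the widely expressed rodent regulator of C3b and C4b, and had 4.99 CPM. Its level per kb depended most on length among all members, 0.482 CPM per kb with the union of exons and 1.29 with the longest transcript. Cd46, which in mice is found mainly in the testis, had 0.0639 CPM (0.0304 to 0.117), about 10 reads.

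A2m encodes a broad plasma protease inhibitor related in sequence to C3. It had 742 CPM (738 to 747) and 106 CPM per kb, at chr6:121635376-121679227. Per kb, Cfi stood 3.17 times above A2m with the union of exons and 2.22 times with the longest transcript. By CPM the ratio was 1.002. Of the receptors for the released peptides, C3ar1 had 7.32 CPM and C5ar1 a single read, 0.00627 CPM (0.000161 to 0.0354).

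**Figure D3:**
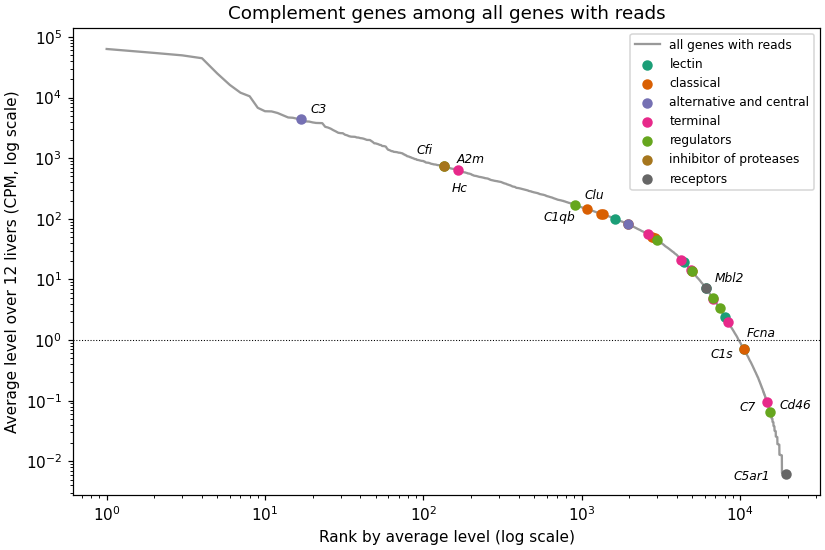
Average level in CPM against rank for all genes with reads (grey line, both axes log), with the 32 complement genes that have reads as points coloured by route; the dotted line marks 1 CPM. C3 ranks 17, and Cfi, A2m and Hc rank 135, 136 and 166.

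Summed by route in CPM, the alternative and central genes had 4444 CPM, the regulators 980 CPM, the terminal genes 726 CPM, the classical genes 583 CPM and the lectin genes 130 CPM. In 4 of these 5 sums the highest member gave most of it, 98.2% for C3, 86.5% for Hc, 76.0% for Cfi and 77.4% for Masp1. In the classical sum, where C1qb was highest, the other 7 genes gave 437 CPM. Per kb, the classical genes had 343 CPM per kb and the terminal genes 153, which changes their order.

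Complement genes outside the 35 were taken from a list of 27 names, 24 of which have a row of their own. Of the 24, 14 lay above 1 CPM, with a median of 1.41 CPM. Vtn, for vitronectin, which binds the terminal complex, was highest with 1550 CPM and 764 CPM per kb. C1qbp, for a C1q-binding protein that also resides in mitochondria, had 334 CPM, and Cpn1, for the carboxypeptidase N that inactivates the released peptides, had 203 CPM. Colec10, a collectin of the lectin route, had 29.2 CPM per kb, against 14.3 for Fcnb. Serping1, for the C1 inhibitor, had 0.387 CPM. The genes of coagulation, the other protease cascade made by the liver, are given for scale and were not tested against complement. Of 21, 18 lay above 1 CPM, and their median was 141 CPM and 49.1 CPM per kb, against 14.6 CPM and 6.60 CPM per kb for the 35 complement members. The sets are unlike, because the 35 include membrane regulators, receptors and genes expressed mainly by macrophages or myeloid cells. The medians therefore do not compare the liver-made parts of the cascades. The highest in CPM were Fgb, for a chain of fibrinogen, with 2385 CPM, Serpinf2, for the plasmin inhibitor, with 2304 CPM, and Plg, for plasminogen, with 1589 CPM.

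The labelled tissue was checked against cell type markers. Hepatocyte markers were at their highest in Alb and Afp, with 63314 and 54525 CPM, and 7 of 8 lay above 1 CPM, Serpina1a being the exception at 0.0316 CPM. Markers above 1 CPM were 5 of 6 for erythroid cells, 5 of 8 for macrophages and 8 of 8 for granulocytes. For endothelial and mesenchymal cells they were 4 of 5 each. Of all protein-coding genes, 43.9% lay above 1 CPM. The erythroid marker below it was Alas2, at 0.552 CPM, and the endothelial Pecam1 and the mesenchymal Pdgfrb were listed at 0. The highest in CPM were Slc4a1 and Klf1 of the erythroid, Cd5l, Marco and Mrc1 of the macrophage, Mpo, S100a8 and Ngp of the granulocyte, Lyve1, Cdh5 and Kdr of the endothelial, and Col1a1, Des and Lrat of the mesenchymal markers. Beside the C1q chains, the macrophage markers Cd5l and Marco had 189 and 108 CPM per kb, while Adgre1, Csf1r and Cd68 had 0, 0.0921 and 0.0451. Beside Fcnb and Cfp, the granulocyte markers ranged from 22.0 CPM per kb for Prtn3 to 688 for S100a8. In whole livers, fewer cells of a type and less RNA per cell cannot be told apart, and which cells held each complement RNA was not tested.

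Genes that control liver transcription were uneven in the same table. Of 19, 11 lay above 1 CPM. The highest in CPM were Cebpa, with 67.9 CPM per kb, Il6st, the shared receptor chain of interleukin-6, with 7.09 CPM per kb, and Spi1 (PU.1), with 20.2 CPM per kb. Hnf4a, Stat3 and Il6ra were listed at 0.

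Windows at the start were found for 27 members and not for A2m, C1qa, C2, C4b, Cfb, Cfi, Masp1 and Clu. The letters of 7 motifs were searched on both strands. GTTAAT was in 8 of the 27 (29.6%), against 8.24% of the 27025 genes with a window. Those 8 were C1ra, C4bp, Hc, C7, C8a, C8b, Cfp and Cd55, from 4 routes. TTGCNNAA, for C/EBP, was in 6 (22.2%, against 12.2%), namely C1ra, C1rl, C1s, C3, C9 and Fcnb. CAAAGNCCA, for HNF4, was in C1s and C8g (7.41%, against 2.28%), and TTCNNNGAA, for STAT, was in 4 (14.8%, against 9.55%). TATAAA was in 4 (14.8%, against 15.7%), and GAGGAAGT, for PU.1, was in C1qc (3.70%, against 3.69%). TGTTTAC, for FOXA, was in 0, against 4.05% of all genes. No match in the windows shown overlaps another. A match is a description of letters in the window and was not tested as a site.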

How the data were processed

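RNA of 12 livers, 6 a diet, was polyA-selected and sequenced. Per the submitters' notes and the paper's methods, the authors used cutadapt 1.2.1, Subread 1.3.6-p1 against mm10, biomaRt for annotation and edgeR to compare the diets. The authors deposited 1 table of 30743 genes, with an average log2 CPM over all livers. How reads were counted per gene is not given in the sources used here. The other columns hold the authors' fold changes, p-values and adjusted p-values with a common and a tagwise dispersion, and were not used. No value of a single liver was used, so the planned test of diet, its alternatives and any SD could not be had, and the depth of single livers is unknown.

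Here the deposited log2 values were raised to CPM and the lowest value (0.152 CPM) was subtracted. Reads were recovered with an assumed prior count of 2. Under that assumption, 1 read over all livers was worth 0.00635 CPM, which limits precision. The recovery was tested on simulated data made with the same prior count, which does not check that assumption. GENCODE M21 (GRCm38, the same build) gave exons, transcripts and positions for 22844 rows, matched by symbol or RefSeq synonym (C1s as C1s1). Shared sequence was counted in words of 50 bases. The threshold for counts was 1 CPM. The text names every member and, of the other lists, the 3 with the highest level. Some items of those lists are not reported here. Further genes of those lists, the reference genes such as Gapdh and the split by listed mRNAs were chosen after their values were seen. The members and lists were chosen with earlier results of these data known. The software was Python 3.11.15 with matplotlib 3.10.9, scipy 1.17.1, pandas 2.3.3 and numpy 2.4.6.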

Additional observations from a re-analysis of the deposited data

How the results depend on the processing

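The number of members above 1 CPM was 27, and 29 and 27 lay above 0.5 and 2 CPM. The number in the top 10% of genes with reads was 10 by CPM and 11 per kb, and 5 when the top 10% was taken among genes above 1 CPM, a smaller set. Without its highest member, the summed level fell to 29.4 CPM in the lectin route, 81.9 CPM in the alternative and central genes, 98.0 CPM in the terminal route, 235 CPM in the regulators and 0.00627 CPM in the receptors, and the classical sum moved to 437 CPM, within 1.5 times. Per kb, 5 of 7 routes kept their position in the order of sums. With the longest transcript, levels per kb were 1 to 2.68 times those with the union of exons (median 1.08). The HNF4 letters were in 1 window among members above 1 CPM. The other motif counts stayed within 1.5 times in windows cut at the start and among members above 1 CPM. The planned comparison of HFD with control, with its other normalization, filter, tool, summed libraries and left-out livers, was not run, because no value of a single liver was used. No paired analysis was possible because the value used is an average over all livers. Depth limits detection to about 0.0190 CPM (3 reads over all livers, with the assumed prior count), for counting error only.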
